A study of Mus musculus with 12 samples.

Results

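Of 11363 CpG-dense tiles of the mouse autosomes, 366 carried methylation at a mean of 20% or more in bone marrow stem and progenitor cells. A tile is a fixed window of 1000 bases, and it was called CpG-dense where at least 20 of its CpGs had 10 or more reads in every one of 12 libraries. Its level is the share of reads that kept a C after bisulfite treatment, summed over those CpGs and both strands. The 366 tiles were chosen by their mean level over 9 libraries, those of the nonleukemic double mutant, the Tet2 knockout and Nras G12D, so their levels in these 9 libraries are a description of the choice. The remaining 10997 CpG-dense tiles lay under 20%, and 81162 tiles with at least 3 CpGs were tested in all.

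Cells sorted as LSK (lineage marker negative, Sca1 and cKit positive, the fraction that holds blood stem and early progenitor cells) came from C57BL/6 mice, 6 months old per the series design. There were 3 libraries in each of 4 groups. The leukemic group carried Tet2(-/-) and Nras(G12D) together, and so did the nonleukemic double mutant, while the Tet2 knockout carried Tet2(-/-) alone and the Nras G12D group the activating Nras(G12D) allele alone. Both alleles were conditional in the blood-forming tissue per the series design, and the Cre driver is not given in the sources used here. The leukemic libraries were identified by the prefix L of their titles. Their descriptions read TN-BMT, an abbreviation that the labels do not spell out, so leukemia cannot be told apart from whatever else that label marks. Wild-type libraries were not analysed here, so each genotype was set against another mutant. The labels do not say that replicates were separate animals, so a p-value reflects how these libraries vary, which may be technical. Replicates of the nonleukemic double mutant listed 349, 2 and 5 Y chromosome positions, and those of the Tet2 knockout 360, 251 and 6. Leukemic and Nras G12D libraries listed 2 to 18. What these differences stem from was not tested. The files hold no expression, so the LSK identity was not checked against markers.

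In mammals CpG-dense stretches, the CpG islands, cover many gene promoters and are mostly free of methylation in normal tissues. Known exceptions are promoters of germline genes, which are methylated and silent in somatic cells, and imprinted control regions, which are methylated on the allele from only one parent. Tet2 starts the removal of methylation by oxidising 5-methylcytosine, and bisulfite sequencing reads 5-methylcytosine and 5-hydroxymethylcytosine alike.

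The libraries held 96300485 to 199736369 reads over listed cytosines, and the tiles rest on a median of 101 reads per CpG and library. Read counts include PCR copies, so they overstate the number of molecules. The groups differed in which CpGs their files listed. A CpG counts here as listed by certain groups alone if each of their libraries had at least 20 reads of it and no other library had any. Of the CpGs that only the leukemic and Nras G12D libraries listed, 155 of 160 lay on chromosome 3, and of those that only the nonleukemic double mutant and Tet2 knockout libraries listed, 96 of 136 did. A further 297 CpGs were listed in the nonleukemic double mutant libraries alone, 216 of them on chromosome 8 and 48 on chromosome 6. Such group-specific CpGs lay within 1 Mb of 32 of the 366 tiles. Their part in the results was not tested, and they are given beside each named tile that has them.

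The sequences below are promoters that lay inside methylated CpG-dense tiles. They show a fully methylated germline promoter (Ddx4, Slc25a31), a partly methylated one (Boll), an imprinted promoter (Plagl1), a homeobox promoter (Hoxa5) and a promoter that was itself free of methylation at the edge of a methylated stretch (Foxa3). Each runs 5′ to 3′ from 250 bases before to 50 bases after the annotated start, is taken from RefSeq (GRCm38.p6), and has in capitals the CpGs that were read in all 12 libraries. Its place in mm9 was found from the spacing of its CpGs among the CpG positions in the files.
Ddx4, chr13:113442469-113442768, minus strand: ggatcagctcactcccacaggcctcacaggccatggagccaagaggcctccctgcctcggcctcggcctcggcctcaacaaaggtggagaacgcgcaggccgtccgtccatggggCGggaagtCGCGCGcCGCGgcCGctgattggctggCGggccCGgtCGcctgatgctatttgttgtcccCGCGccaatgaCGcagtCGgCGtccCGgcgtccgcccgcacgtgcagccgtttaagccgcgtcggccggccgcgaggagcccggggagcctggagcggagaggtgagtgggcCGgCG
Slc25a31, chr3:40512543-40512842, plus strand: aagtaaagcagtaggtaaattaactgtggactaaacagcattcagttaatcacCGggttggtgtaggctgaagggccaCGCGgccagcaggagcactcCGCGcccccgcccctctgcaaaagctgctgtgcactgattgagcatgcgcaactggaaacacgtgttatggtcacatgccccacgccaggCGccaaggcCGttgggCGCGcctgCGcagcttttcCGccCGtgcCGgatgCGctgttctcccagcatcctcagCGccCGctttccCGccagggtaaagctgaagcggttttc
Boll, chr1:55419523-55419822, minus strand: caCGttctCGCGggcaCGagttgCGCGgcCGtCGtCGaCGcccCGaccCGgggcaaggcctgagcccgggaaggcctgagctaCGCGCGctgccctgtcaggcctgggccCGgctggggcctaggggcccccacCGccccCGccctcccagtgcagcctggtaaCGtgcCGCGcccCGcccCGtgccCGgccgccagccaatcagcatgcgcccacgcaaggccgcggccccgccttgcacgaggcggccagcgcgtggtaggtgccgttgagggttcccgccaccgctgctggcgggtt
Plagl1, chr10:12810388-12810687, plus strand: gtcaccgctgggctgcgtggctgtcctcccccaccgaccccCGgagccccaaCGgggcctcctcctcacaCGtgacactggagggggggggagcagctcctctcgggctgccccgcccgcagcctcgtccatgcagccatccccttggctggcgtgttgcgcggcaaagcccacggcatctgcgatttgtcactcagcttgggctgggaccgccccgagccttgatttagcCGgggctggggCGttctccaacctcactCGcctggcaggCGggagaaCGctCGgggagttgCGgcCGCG
Hoxa5, chr6:52154537-52154836, minus strand: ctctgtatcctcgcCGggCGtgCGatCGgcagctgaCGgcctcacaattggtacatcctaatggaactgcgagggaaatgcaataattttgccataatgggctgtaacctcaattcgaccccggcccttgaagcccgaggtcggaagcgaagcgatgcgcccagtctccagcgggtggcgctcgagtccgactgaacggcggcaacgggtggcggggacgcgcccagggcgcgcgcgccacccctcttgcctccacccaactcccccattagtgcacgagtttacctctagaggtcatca
Foxa3, chr7:19608839-19609138, minus strand: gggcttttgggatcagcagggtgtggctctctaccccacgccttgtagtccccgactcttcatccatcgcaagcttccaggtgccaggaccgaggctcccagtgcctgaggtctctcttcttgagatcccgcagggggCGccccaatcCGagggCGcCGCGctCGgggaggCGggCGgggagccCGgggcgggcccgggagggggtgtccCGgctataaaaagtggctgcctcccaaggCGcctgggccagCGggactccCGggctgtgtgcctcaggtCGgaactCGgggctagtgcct

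The level of CpG-dense tiles was split between the ends of the scale. Of the 11363 tiles, 10390 lay under 5%, and among the 366 methylated ones 148 lay at 90% or more and 70 between 20% and 30%, with 9 to 41 in each of the 10-point steps between 30% and 80%. By the spread of single CpGs the 366 tiles fell into 3 classes. In 181 uniformly high tiles the tile level was 80% or more (median 95.2%, highest 98.1%), and 93.5% of their CpGs were themselves above 80%. In 116 intermediate tiles at least 50% of the CpGs lay between 20% and 80% (median tile level 41.4%). The 69 mixed tiles had neither property, with a median level of 25.2%, and 53.6% of their CpGs lay under 20% and 17.0% above 80%.

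**Figure D1:**
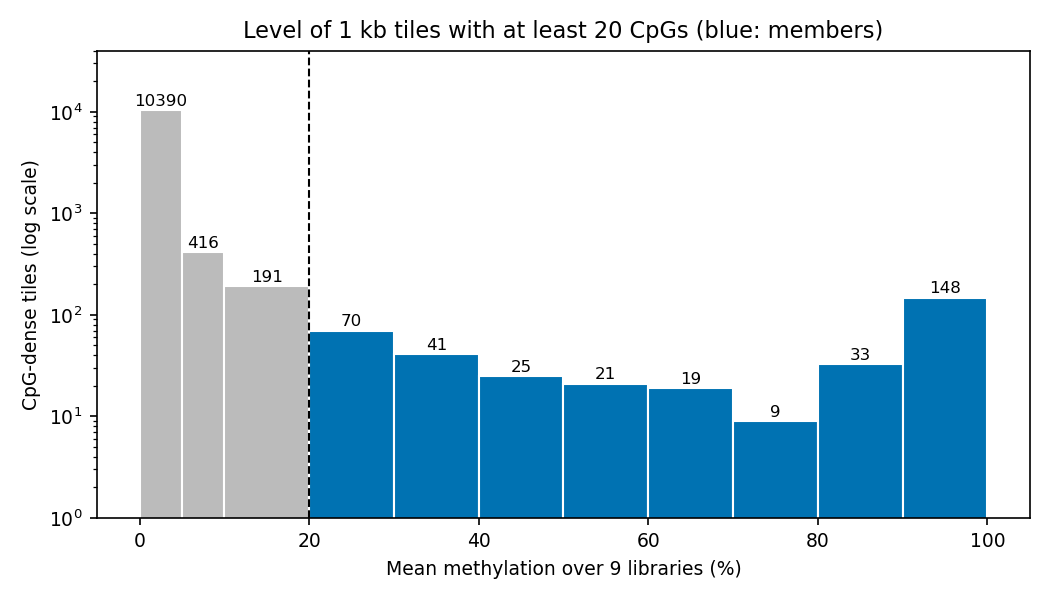
Number of CpG-dense tiles (log scale) by mean methylation over 9 libraries, in steps of 5 or 10 percentage points, with the 20% threshold dashed. Most tiles, 10390, lie under 5%, and the 366 methylated tiles (blue) pile up at 90% or more (148) and just above the threshold (70).

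The threshold cut through a continuous range. The tiles just inside it had means of 20.2%, 20.3% and 20.3%, and those just outside 19.6%, 19.7% and 19.7%, the first of these holding the promoter of Oxtr, the oxytocin receptor gene. The classes also differed in what lay beside them, which the choice of tiles did not use. Of the 111 uniformly high tiles with a tested neighbour, 91 had neighbours at 80% or more only, whereas of 52 mixed tiles with one, 26 had neighbours under 20% only. Of the 13 mixed tiles tested on both sides, 8 had one neighbour under 20% and the other at 80% or more.

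The tiles were mostly isolated. Of the 366, 322 had no adjacent member, 16 runs held 2 tiles, 2 runs held 3 and 1 run held 6. On chromosome 7 they made up 46 of 749 CpG-dense tiles (6.14%), the highest share of an autosome, and on chromosome 16 they were 1 of 343 (0.292%), the lowest. The median tile had 24 CpGs, against 34 in the CpG-dense tiles under the threshold.

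A promoter could be placed in 29 of the 366 tiles (7.92%), against 4394 of 10997 CpG-dense tiles under 20% (39.96%). Both shares count only the promoters that could be placed, 8829 of 31396 in the table, and none on chromosome 18. Of the 31396, 15382 had the 8 CpGs that placement needs, and 776 matched several places. At least 8 CpGs of a window also had to be listed in the files, so placement favours CpG-rich windows. How much of the contrast follows from this was not tested. The 29 tiles held promoters of 31 genes. In 7 of the 31 windows the mean over the 9 libraries was 80% or more, in 11 it lay between 20% and 80%, and in 13 it was under 20%. The last group includes 7 promoters under 5%, which were unmethylated although their tile was methylated at 20% or more on the whole. These were the promoters of Foxa3, a liver forkhead factor, Hoxa6, a homeobox factor, Dnajb5, a co-chaperone, Nsmce1, a subunit of the Smc5/6 complex, Gm36388, and the neighbouring Nudt1, which hydrolyses oxidised nucleotides, and Mrm2, a mitochondrial rRNA methyltransferase. The genes outside the fixed lists were singled out after their values were seen.

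The fixed list of germline genes had 20 placed genes. Of these, 4 had their promoter in a CpG-dense tile, and 3 of the 4 (75%) were members, against 31 of 4937 placed genes with promoters in CpG-dense tiles (0.628%). The exception was Syce2, a synaptonemal complex gene, in a tile at 2.50%. The list was chosen with earlier results of these data known, so the share is a description. Ddx4, which encodes the germ cell RNA helicase Vasa, had window levels of 98.4%, 95.2% and 92.6% in leukemic libraries. Its window stood at 91.7%, 90.9% and 92.9% in nonleukemic double mutants, 92.2%, 92.4% and 96.3% in Tet2 knockouts and 94.7%, 94.0% and 92.6% in Nras G12D libraries. All 12 libraries were thus above 90% at the 18 CpGs read, and the lowest single CpG mean over the 9 libraries was 81.9%.

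Slc25a31, the ADP/ATP carrier of the testis, averaged 93.8% ± 7.47 over 17 CpGs in leukemic libraries, 95.1% ± 4.11 in nonleukemic double mutants, 93.2% ± 6.28 in Tet2 knockouts and 97.0% ± 1.35 in Nras G12D (SD, n = 3 each). Boll, an RNA-binding protein of male meiosis, stood at an intermediate level with little spread between groups. It averaged 63.3% ± 3.21 in leukemic libraries, 63.5% ± 1.21 in nonleukemic double mutants, 64.4% ± 2.86 in Tet2 knockouts and 64.6% ± 2.01 in Nras G12D (SD, n = 3 each). Its 24 CpGs ran from 36.2% to 94.4% in the mean over the 9 libraries, so the intermediate mean was not a uniform level along the promoter. Other promoters of genes known from the germline, outside the list, spanned the range: Dmrtb1, a factor of the switch to meiosis, averaged 93.1% ± 4.41 in leukemic, 94.4% ± 0.814 in nonleukemic double mutant, 94.6% ± 2.36 in Tet2 knockout and 93.5% ± 2.24 in Nras G12D libraries (SD, n = 3 each). Rbm46, a germ cell RNA-binding protein, averaged 20.8% ± 5.05 in leukemic, 24% ± 1.52 in nonleukemic double mutant, 19% ± 6.51 in Tet2 knockout and 19.4% ± 10.5 in Nras G12D libraries (SD, n = 3 each).

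The germline list extends beyond the CpG-dense tiles, since most of its placed promoters sit in tiles with fewer than 20 CpGs. Of the 16 genes placed only there, 13 had CpGs of the window read in all libraries, and the window mean over the 9 libraries was 80% or more in 9, between 20% and 80% in 2 and under 20% in 2. The 9 high promoters were those of Asz1 (96.2%), Fkbp6, Gpat2, Hormad1, Mael, Sycp1 (83.7%), Tex101, Tex14 and Tuba3b, the last pair read at 1 and 2 CpGs. Hormad2, a protein of the meiotic chromosome axis, stood at 69% and Meioc, a regulator of meiotic entry, at 54.6%. Smc1b, the meiotic cohesin subunit, stood at 9.71% over 4 CpGs and Tdrkh, a piRNA pathway protein, at 1.95% over 3 CpGs. The tiles that held the centres of these windows stood higher, at 32.4% for Smc1b and 21.3% for Tdrkh. The placed start of Dazl, a germ cell RNA-binding protein, lay in a member tile of 53 CpGs at 21.9%, while the adjacent tile, which held the centre of its window, had 90.2% at 3 CpGs.

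The imprinted list had 13 placed genes, 7 of them in CpG-dense tiles, and 2 of the 7 (28.6%) were members. Plagl1, an imprinted zinc finger gene whose promoter window overlaps that of the imprinted non-coding RNA Hymai, had tile levels of 51.8%, 31.8% and 39.5% in leukemic libraries. The tile had 36.6%, 34.0% and 35.0% in nonleukemic double mutants, 40.6%, 30.7% and 28% in Tet2 knockouts and 30.5%, 36.1% and 27.7% in Nras G12D libraries. All groups overlapped. Commd1, the host gene of the imprinted Zrsr1, had tile means of 28.3% ± 9.65 in leukemic, 32.1% ± 2.54 in nonleukemic double mutant, 38.3% ± 8.32 in Tet2 knockout and 27.8% ± 6.27 in Nras G12D libraries (SD, n = 3 each). At the 11 CpGs read in its window, leukemic libraries had 24.3%, 15.9% and 8.49%, against 24.7%, 34.8% and 28.6% in nonleukemic double mutants. The window had 28.4%, 20.9% and 30.1% in Tet2 knockouts and 35.7%, 26.8% and 24.4% in Nras G12D libraries. Leukemic libraries lay narrowly under all nonleukemic double mutant and Nras G12D libraries there, and overlapped the Tet2 knockouts. The window has no test. Another placed Commd1 promoter was unmethylated, in a sparser tile of 16 CpGs at 0.274% over the 9 libraries. The other 5 placed imprinted genes with promoters in CpG-dense tiles were Zdbf2, Gnas, Copg2, Peg12 and Igf2, and their tiles ranged from 0.128% (one Gnas promoter) to 15.5% (Peg12). Gnas, which encodes the stimulatory G protein alpha subunit, had another placed promoter in a sparser tile, with a window mean of 35% over the 9 libraries, and 4 member tiles lay between its placed starts. Of the 6 imprinted genes with window centres only in sparser tiles, 5 had window means over the 9 libraries. These were 94.7% for Mcts2, 41.6% for Zrsr1, 35.1% for Igf2r, 4.18% for Zim1 and 0.116% for Blcap. The placed start of Zrsr1 lay in the member tile given for Commd1, while the adjacent tile, which held the centre of its window, had 43.9% at 5 CpGs. The Zrsr1 window averaged 21.7% in leukemic, 41.3% in nonleukemic double mutant, 44.6% in Tet2 knockout and 38.8% in Nras G12D libraries, without a test.

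Members without a placed promoter could be set between their nearest placed neighbours, in 328 cases. In 16 of them the interval held an imprinted gene of the list or lay between the placed starts of one. With at most 30 genes in all, 10 of these remained, and 8 of the 10 were intermediate tiles, against 116 of all 366. The 8 included 4 tiles by Gnas and an adjacent pair on chromosome 7, so they are not independent. The 4 between the Gnas starts stood at 37.8%, 42.2%, 42.2% and 37.7% over the 9 libraries, the first of them 0.179 kb from the upstream start. A pair of adjacent tiles on chromosome 7 lay between Tssc4 and Phlda2, an interval with Kcnq1, Kcnq1ot1 and Cdkn1c, at 31.5% and 39.0%. A tile with 46 CpGs between Fignl1 and Vstm2a, an interval with Grb10, stood at 40.2%. A tile 581 kb from Zim1 and 0.001 kb from Vmn2r29, an interval with Peg3 and Usp29, stood at 69.7%. One 20.1 kb from Mcts2, in an interval with H13, stood at 90.7%. The last, in an interval with Airn, was one of the tiles that fell in leukemic libraries and is described further on. These placements name genes in the interval, not the gene that the tile belongs to.

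**Figure D2:**
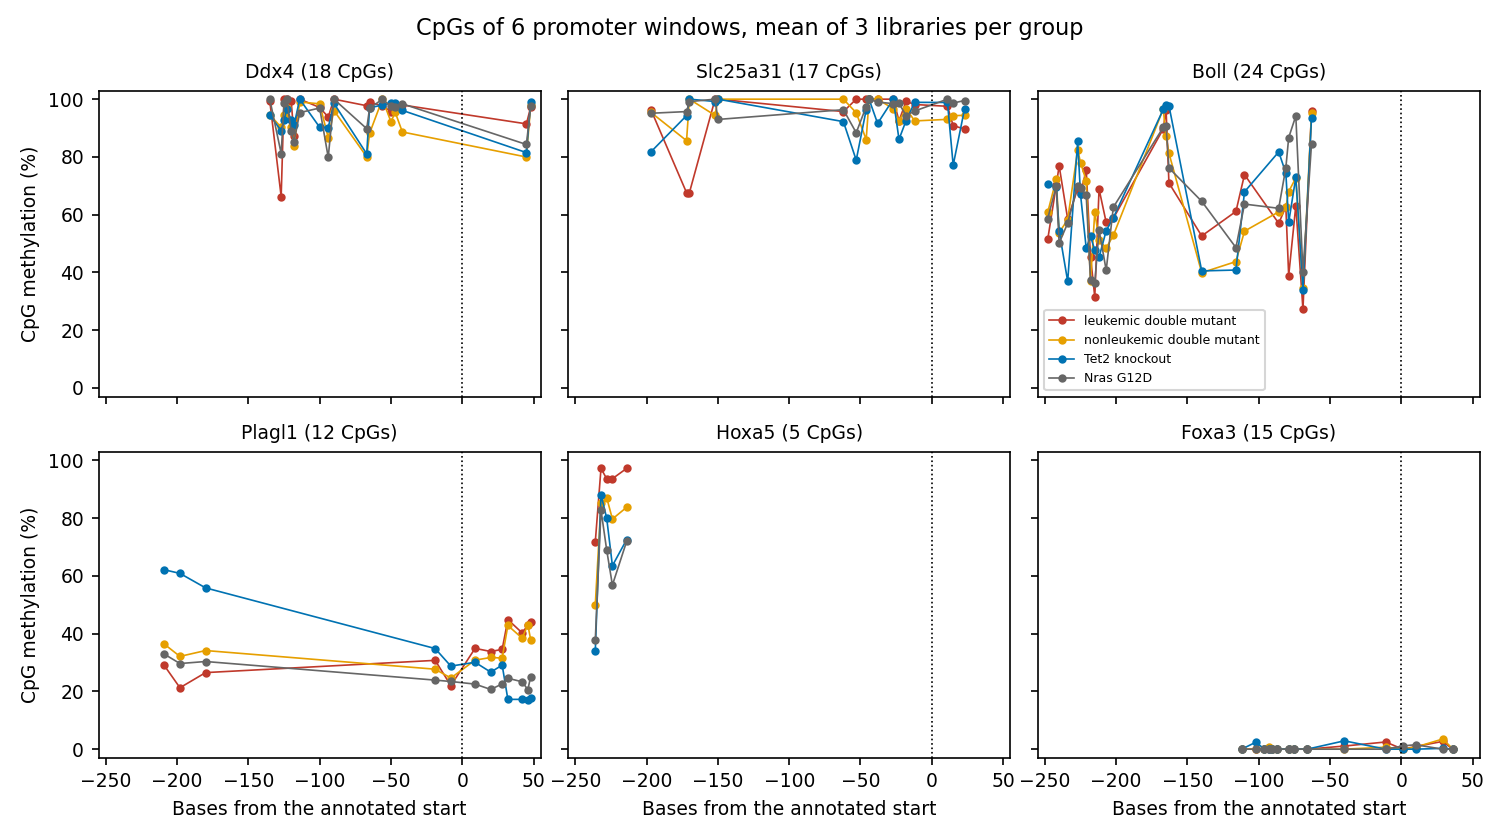
Methylation of single CpGs (%) against the distance in bases from the annotated start for 6 promoters, one line per group (mean of 3 libraries). Ddx4 and Slc25a31 stay at 66.3% or more in every group mean, Boll ranges from 27.2% to 98.1%, Plagl1 is partly methylated, Hoxa5 was read only at its 5 upstream CpGs, and Foxa3 stays near 0.

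Hoxa5, a homeobox transcription factor, was read at 5 CpGs of its window, all near its upstream end. These had 95.7%, 87.5% and 88.9% in leukemic libraries, against 79.1%, 78.1% and 74.3% in nonleukemic double mutants, 69%, 71.5% and 62.5% in Tet2 knockouts and 56.3%, 68.9% and 65.8% in Nras G12D libraries. All leukemic libraries lay above all other libraries at these CpGs. Over the whole tile of 41 CpGs the leukemic libraries had 77.5%, 56.7% and 57.5%, against 57.0%, 42.5% and 52.6% in nonleukemic double mutants, and the groups overlapped. The tile difference of 13.2 points was not called (adjusted p = 0.162). The window was singled out after its values were seen and has no test.

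All 32 placed promoter windows of the 31 genes held CCGG, the MspI site at which the libraries were cut, against 53.5% of the 31396 autosomal promoters. A window was placed only where at least 8 of its CpGs were listed in these MspI libraries. The placement itself thus favours windows with the site, and this share says nothing about methylation. Some windows overlap, those of Nudt1 and Mrm2 and those of Plagl1 and Hymai among them, and the 32 windows make up 29 distinct regions. CACGTG, its own reverse complement, was found in 6 of the 29 (20.7%), against 7.18% of the 27701 distinct regions that all promoters make up. These were the regions of Ddx4, Slc25a31, Rbm46, 4933428G20Rik and Amn and the shared one of Plagl1 and Hymai. GCGGGA, searched on both strands, was found in 14 (48.3%) against 19.9%. Its windows ran from those under 5% (Gm36388, Nudt1, Mrm2, Foxa3 and Nsmce1) to those at 80% or more (Ddx4, Slc25a31 and Hsf5). Promoters with few CpGs could not be placed, so these shares compare CpG-rich windows with all windows.

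The first question across the groups was how these tiles stand in the libraries labelled leukemic. Their mean level over the 366 tiles was 64.4%, 61.6% and 61.5% in leukemic libraries, against 66.2%, 66.0% and 65.5% in nonleukemic double mutants, 66.1%, 68.2% and 66.1% in Tet2 knockouts and 65.7%, 65.1% and 65.0% in Nras G12D libraries. All 3 leukemic libraries were lower than all 9 others. The leukemic mean was 62.5% ± 1.65, against 65.9% ± 0.383 in nonleukemic double mutants, 66.8% ± 1.20 in Tet2 knockouts and 65.2% ± 0.390 in Nras G12D (SD, n = 3 each). The leukemic libraries took no part in the choice of tiles and the others did, so the choice itself favours a difference in this direction. With tiles chosen only by the libraries of groups not compared, the differences were -3.28, -4.13 and -2.64 points, close to the -3.39, -4.27 and -2.72 points of the 366 tiles.

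Against nonleukemic double mutants the difference was -3.16 points in uniformly high, -3.56 in intermediate and -3.73 in mixed tiles. Uniformly high tiles averaged 90.2% in leukemic libraries, against 93.4% in nonleukemic double mutants, 93.5% in Tet2 knockouts and 92.8% in Nras G12D. Intermediate tiles averaged 39.9% in leukemic libraries, against 43.4% in nonleukemic double mutants, 45.4% in Tet2 knockouts and 42.9% in Nras G12D, and here the leukemic range of 37.7% to 43.2% overlapped that of the nonleukemic double mutants, 42.3% to 44.3%. Mixed tiles averaged 27.9% in leukemic libraries, against 31.6% in nonleukemic double mutants, 32.8% in Tet2 knockouts and 30.7% in Nras G12D. In the 29 tiles with a placed promoter the leukemic range of 43.9% to 48.9% overlapped that of each other group. Outside the members, methylated tiles with 3 to 19 CpGs averaged 80.8% in leukemic libraries and 87.1% in nonleukemic double mutants, a difference of -6.29 points, against -3.39 in the CpG-dense members. CpG-dense tiles under the threshold averaged 1.13% in leukemic libraries and 1.15% in nonleukemic double mutants.

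**Figure D3:**
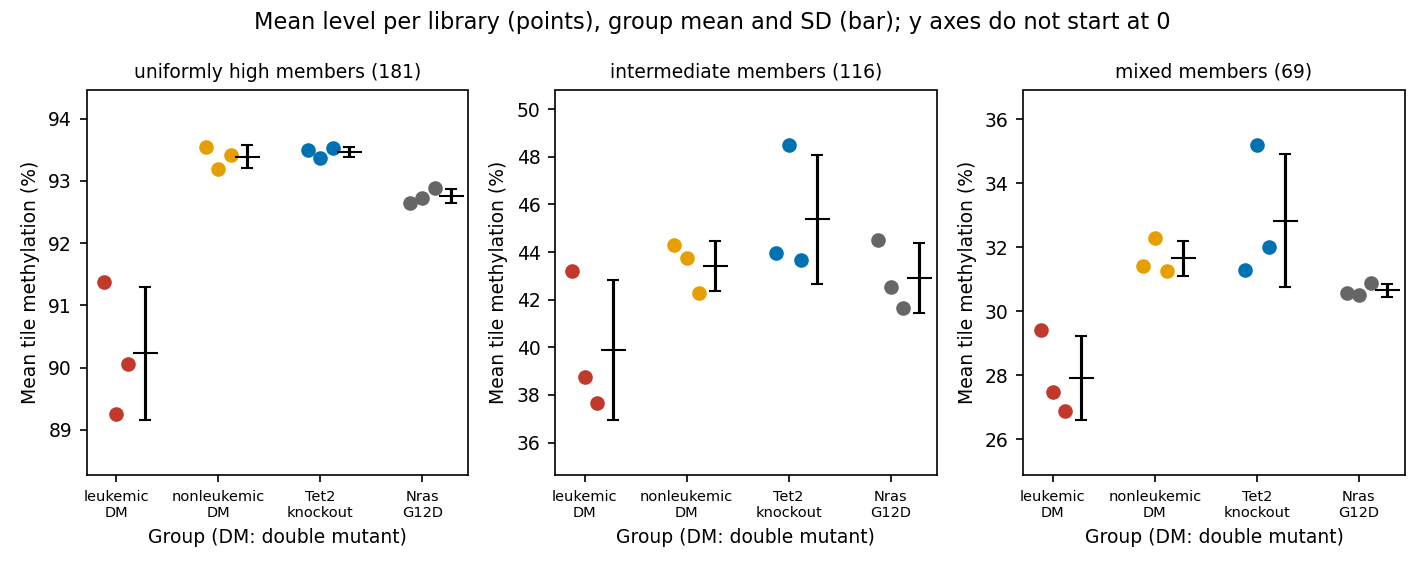
Mean methylation (%) of the members of each class in each library (points), with the group mean and SD of 3 libraries; y axes are cut. The leukemic libraries lie lowest in the uniformly high (90.2% against 92.8% to 93.5%) and mixed classes, and overlap other groups in the intermediate class.

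Of the 366 tiles, 21 were lower in leukemic libraries than in nonleukemic double mutants (5.74%, against 3.87% of all 81162 tiles) and 2 were higher (0.546%, against 0.115%). A tile was called at an adjusted p under 0.05 in a quasi-binomial model over all tiles, with Benjamini-Hochberg adjustment, and a difference of at least 10 points. Among methylated tiles with 3 to 19 CpGs, 5.62% were called lower, so the members' share of falls was close to that of sparser methylated tiles. Without regard to the test, 104 members had all leukemic libraries under all nonleukemic double mutants (19.9% of all tiles did) and 13 had them above (2.56%). The falls came from all classes, 9 uniformly high, 7 intermediate and 5 mixed, and both rises were intermediate. None of the 23 tiles held a placed promoter, where 29 of all 366 tiles (7.92%) did. The count was 10 without nonleukemic double mutant replicate 1 and 11 without replicate 2 or replicate 3 of that group. It was 4 in a fit on the 6 libraries compared and 1 with limma. The fit on 6 libraries has fewer degrees of freedom for the spread and takes it from the compared groups alone. Leukemic libraries had the largest median SD of a tile, 3.70 points, against 1.64 in nonleukemic double mutants. What lowered the count was not tested.

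Against Tet2 knockouts 28 tiles were lower in leukemic libraries (7.65%, against 7.5% of all tiles) and 2 higher (0.546%, against 0.158%). Against Nras G12D 11 were lower (3.01%, against 1.96%) and 2 higher (0.546%, against 0.0887%). Among methylated tiles with 3 to 19 CpGs, 10.8% were called lower against Tet2 knockouts and 2.85% against Nras G12D. Without leukemic replicate 1 the 2 counts of called tiles, 30 and 13, became 47 and 21. The second became 5, 4 and 5 without Nras G12D replicates 1, 2 and 3. In a fit on the 6 libraries compared they were 1 and 0. Limma called 4 and 0, and at an unadjusted p under 0.05 it had 35 (9.56%, against 19.9% of all tiles) and 28 (7.65%, against 12.6%). The 3 comparisons share the leukemic libraries, so they do not repeat each other. Members whose leukemic libraries lay under all of the other group numbered 88 against Tet2 knockouts (19.2% of all tiles) and 76 against Nras G12D (14.6%), and those above 5 (2.26%) and 10 (2.94%). In all, 36 tiles were called in at least 1 of them (9.84%, against 8.41% of all tiles) and 9 were lower in all 3 (2.46%, against 1.54%).

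**Figure D4:**
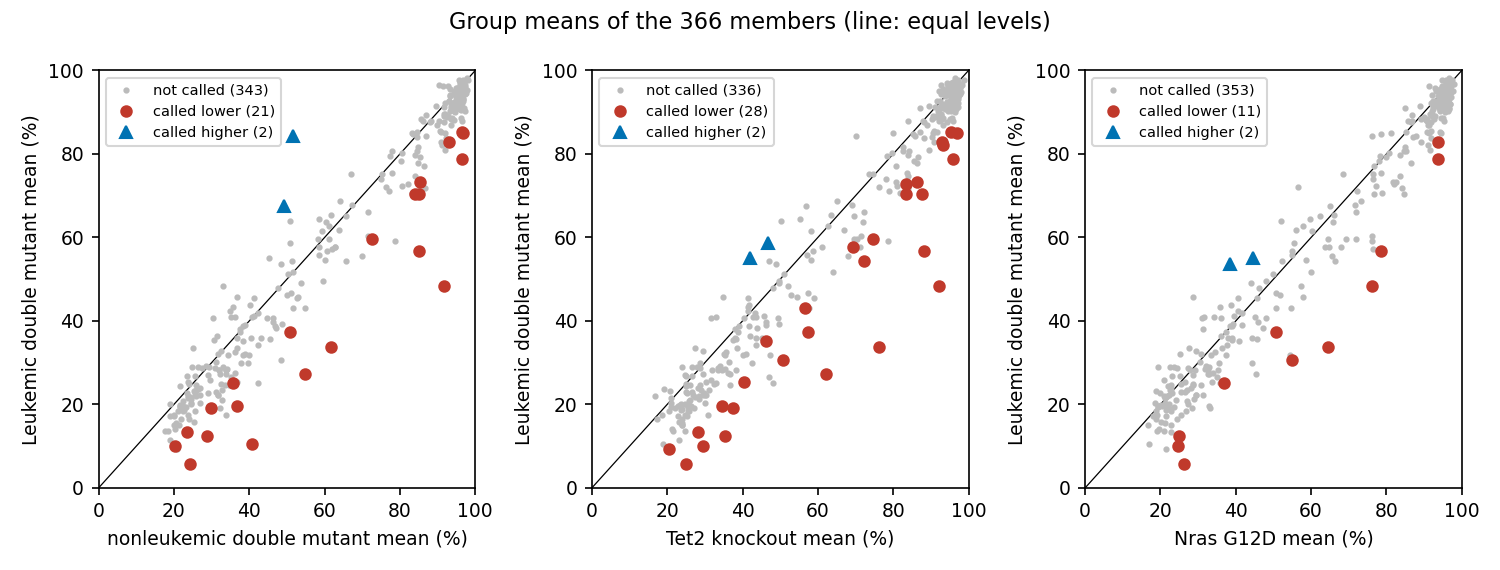
Mean methylation (%) of each of the 366 tiles in leukemic libraries (y axis) against nonleukemic double mutants, Tet2 knockouts and Nras G12D (x axes), with the line of equal levels. Tiles called lower in leukemic libraries (red, 21, 28 and 11) lie along the whole range, and 2 tiles are called higher in each comparison (blue).

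The largest fall was in a tile of 23 CpGs at chr10:80069000-80069999 (mm9), 3.37 kb from the start of Scamp4, a secretory carrier membrane protein. The next placed start on its other side was that of Mknk2, a kinase of the translation factor eIF4E, at 69 kb, with Adat3, Csnk1g2 and Btbd2 among the genes between. It had 49.2%, 47.8% and 48.1% in leukemic libraries, against 90.6%, 93.9% and 90.4% in nonleukemic double mutants. It had 90.7%, 91.1% and 94.8% in Tet2 knockouts and 69.2%, 80.6% and 78.5% in Nras G12D libraries. All leukemic libraries lay near 50%, far under every other library, and Nras G12D lay under both Tet2-deficient nonleukemic groups. The differences were -43.3 points against nonleukemic double mutants (adjusted p = 2.12e-05), -43.8 against Tet2 knockouts (adjusted p = 1.09e-05) and -27.7 against Nras G12D (adjusted p = 0.00113). The first and second calls were kept under all 14 alternatives, while every other call by which a tile was named here was lost with limma and in the fit on the 6 libraries compared. Each library had 1407 to 3459 reads in the tile.

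The tile with 32 CpGs at chr8:90467000-90467999, 15.5 kb from the start of Zfp423, a zinc finger factor, set the nonleukemic double mutants apart. It had 12.4%, 13.6% and 5.49% in leukemic libraries, against 52.5%, 41.1% and 28.5% in nonleukemic double mutants, 17.1%, 22.2% and 17.2% in Tet2 knockouts and 15.5%, 17.2% and 18.2% in Nras G12D libraries. The nonleukemic double mutants were above every other library, and the leukemic difference to them was -30.2 points (adjusted p = 0.00153). Of all named tiles it had the most group-specific CpGs within 1 Mb, 20, on the chromosome where the nonleukemic double mutants listed 216 CpGs of their own. Their part in the difference was not tested.

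The tile at chr2:145686000-145686999, 42 kb from Naa20, a subunit of an N-terminal acetyltransferase, had 44.9%, 64.5% and 60.7% in leukemic libraries. It had 80.5%, 85.1% and 89.3% in nonleukemic double mutants, 84.8%, 88.0% and 91.6% in Tet2 knockouts and 85.0%, 74.8% and 76.0% in Nras G12D libraries. The leukemic libraries were lower than all others without overlap, by -28.3 points against nonleukemic double mutants (adjusted p = 0.00406). The call against Nras G12D (adjusted p = 0.0303) was lost when any 1 Nras G12D library was left out.

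The tile at chr3:88340000-88340999 lay 4.13 kb from the start of Mex3a, an RNA-binding protein, and 16.6 kb from that of Ubqln4, with Rab25 and Lamtor2 between. It had 21.2%, 33.7% and 46.0% in leukemic libraries, against 70.2%, 68.7% and 46.6% in nonleukemic double mutants, 79.9%, 76.9% and 71.7% in Tet2 knockouts and 53.9%, 65.8% and 74.0% in Nras G12D libraries. The ranges of the double mutants nearly met, and the difference of -28.2 points (adjusted p = 0.0241) was not called without nonleukemic double mutant replicate 1 or 2. The fall of -42.6 points against Tet2 knockouts (adjusted p = 0.00194) was kept whichever library was left out. The tile lies on chromosome 3, where the leukemic libraries shared listed CpGs with Nras G12D, and it had no group-specific CpG within 1 Mb.

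The tile at chr7:25162000-25162999, between Zfp94 and Smg9, had 43.0%, 14.6% and 24.2% in leukemic libraries, against 58.8%, 51.9% and 53.8% in nonleukemic double mutants, 63.2%, 61.2% and 62.0% in Tet2 knockouts and 39.6%, 46.9% and 49.3% in Nras G12D libraries. The leukemic libraries were spread widely, and 1 of them lay within the Nras G12D range. It was called against nonleukemic double mutants at -27.6 points (adjusted p = 0.0191) and against Tet2 knockouts at -34.9 (adjusted p = 0.00373). The call against nonleukemic double mutants was lost when any 1 nonleukemic double mutant library was left out.

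The tile at chr17:12700000-12700999, with 4732491K20Rik and Igf2r as its placed neighbours and the imprinted gene Airn in the interval between them, was nearly unmethylated in leukemic libraries, at 8.13%, 4.22% and 5.14%. It had 28.3%, 21.0% and 23.5% in nonleukemic double mutants, 27.9%, 27.8% and 19.4% in Tet2 knockouts and 26.6%, 19.8% and 32.3% in Nras G12D libraries. The fall was -18.4 points against nonleukemic double mutants (adjusted p = 0.00293), -19.2 against Tet2 knockouts (adjusted p = 0.00189) and -20.4 against Nras G12D (adjusted p = 0.00413). The placed start of Igf2r was 262 kb away, so the tile was not at that promoter.

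The tile at chr4:136390000-136390999, 0.851 kb from the start of Gm31536, had 11.8%, 16.4% and 8.87% in leukemic libraries, against 26.4%, 28.6% and 31.6% in nonleukemic double mutants, 36.4%, 41.5% and 28% in Tet2 knockouts and 23.8%, 23.2% and 27.6% in Nras G12D libraries. It was a mixed tile with an almost unmethylated neighbour at 0.908%, and it fell in all 3 comparisons, by -23.0 points against Tet2 knockouts (adjusted p = 0.000673). The tile at chr5:98364000-98364999, 95 kb from Antxr2, an anthrax toxin receptor gene, averaged 30.6% ± 10.2 in leukemic libraries and 54.9% ± 7.61 in Nras G12D (SD, n = 3 each). That difference of -24.3 points (adjusted p = 0.0391) was lost when leukemic replicate 1 or 2 or any 1 Nras G12D library was left out.

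The 9 tiles that fell in all 3 comparisons included the tiles by Scamp4, Naa20, Mex3a and Gm31536 and the one in the interval with Airn. The remaining 4 lay between Mfap2 and Crocc on chromosome 4, between Fam222a and Trpv4 on chromosome 5, near Pear1 on chromosome 3 and near Arrdc2 on chromosome 8. The tile between Mfap2 and Crocc had 73.2%, 81.9% and 81.1% in leukemic libraries, against 97.3%, 96.2% and 96.3% in nonleukemic double mutants, 94.2%, 97.0% and 96.7% in Tet2 knockouts and 92.5%, 93.6% and 94.8% in Nras G12D libraries. The tile near Arrdc2 had 8.56%, 9.20% and 12% in leukemic libraries, against 25.7%, 14.3% and 20.7% in nonleukemic double mutants, 25.6%, 33.9% and 28.6% in Tet2 knockouts and 22.5%, 24.8% and 26.8% in Nras G12D libraries. These 4 tiles were singled out after their values were seen. They show falls from full methylation and from low levels alike.

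Rises in leukemic libraries were few. The tile at chr4:116976000-116976999, 14 kb from Gm12843, had 83.4%, 82.4% and 87.2% in leukemic libraries, against 66.5%, 46.1% and 42.3% in nonleukemic double mutants, 65.4%, 78.9% and 66.0% in Tet2 knockouts and 79.9%, 77.8% and 70.9% in Nras G12D libraries. The nonleukemic double mutants were the low group here, and the rise of 32.7 points was called against them (adjusted p = 0.00468) and not against the others. The tile at chr12:18142000-18142999 averaged 67.6% ± 6.45 in leukemic libraries and 49.2% ± 5.62 in nonleukemic double mutants (SD, n = 3 each). Its call (adjusted p = 0.0302) was lost without leukemic replicate 1 or 2 and without any 1 nonleukemic double mutant library, and it had 1 group-specific CpG within 1 Mb.

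The tile at chr7:114353000-114353999, with 97 CpGs the second richest of the 366, began 0.041 kb from the placed start of Rbmxl2, a testis RNA-binding protein encoded by a retrogene. It had 52.9%, 52.3% and 60.3% in leukemic libraries, against 41.5%, 44.3% and 50.0% in nonleukemic double mutants, 42.0%, 42.5% and 41.3% in Tet2 knockouts and 46.6%, 44.0% and 43.3% in Nras G12D libraries. All leukemic libraries were above all others. The rise was called against Tet2 knockouts (13.2 points, adjusted p = 0.00322) and Nras G12D (10.5 points, adjusted p = 0.0270), and at 9.92 points it missed the 10-point limit against nonleukemic double mutants (adjusted p = 0.0212). The call against Nras G12D was lost without leukemic replicate 3 and without any 1 Nras G12D library. The tile at chr12:20318000-20318999 held the placed start of Gm40881, whose place is not in the order of the gene table, and averaged 53.7% ± 4.28 in leukemic libraries and 38.5% ± 6.38 in Nras G12D (SD, n = 3 each), and this call (adjusted p = 0.0305) was lost without leukemic replicate 1 or any 1 Nras G12D library.

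**Figure D5:**
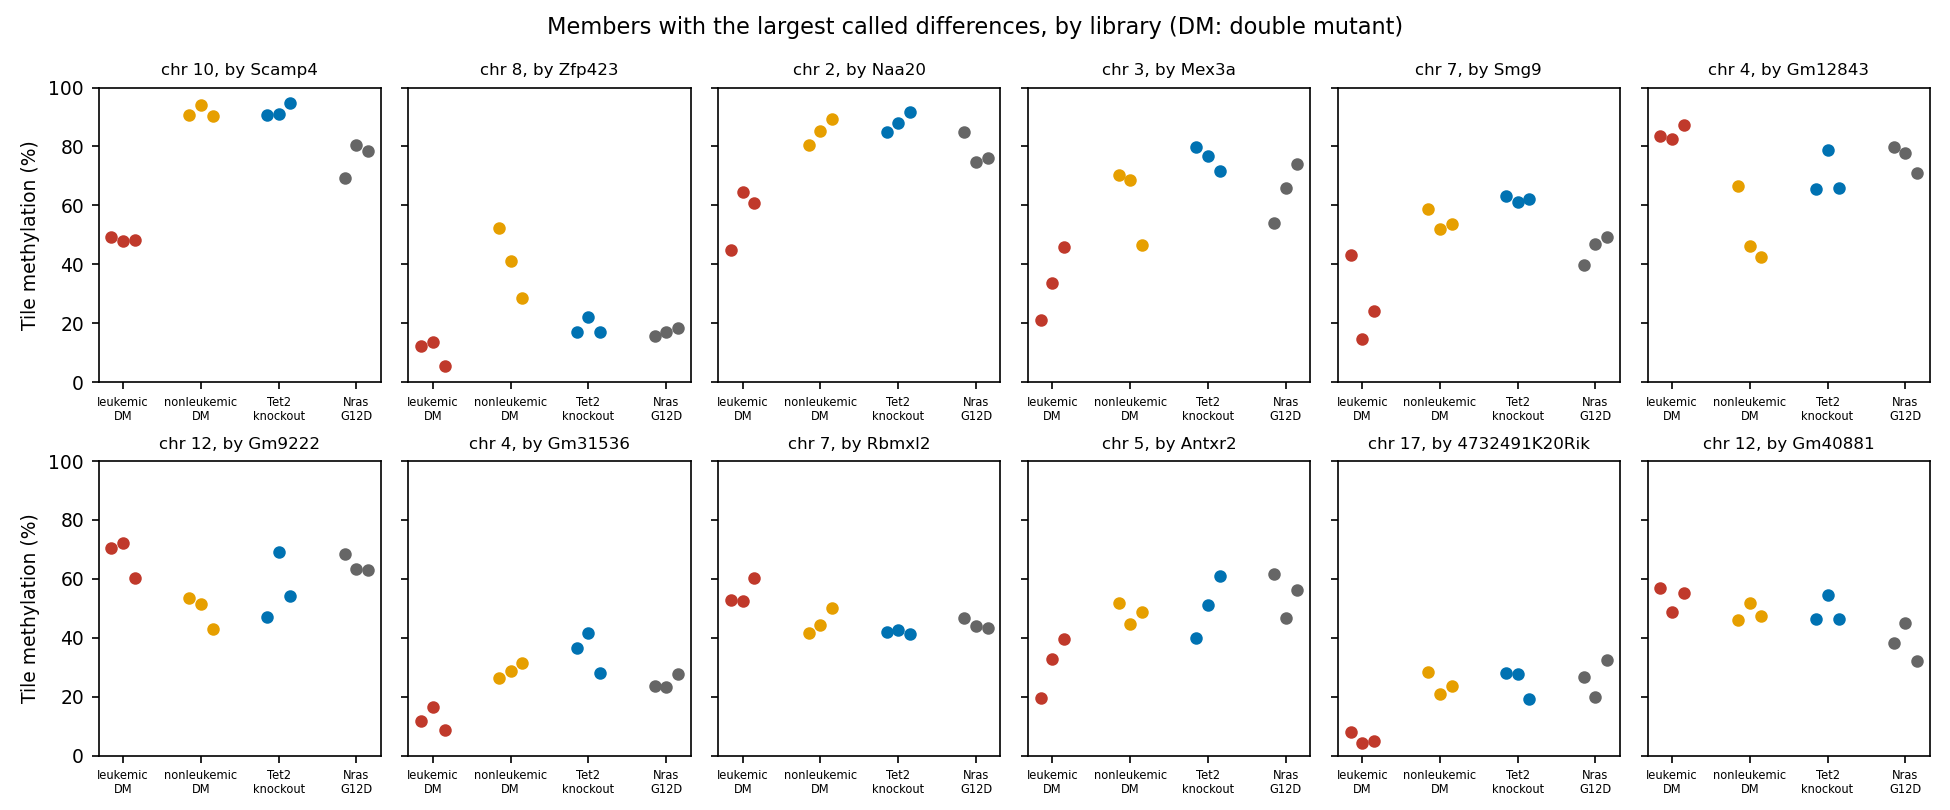
Tile methylation (%) in each of the 12 libraries (points, 3 per group) for the 12 tiles named for their called differences in leukemic libraries, titled by chromosome and nearest placed gene. The tile by Scamp4 shows leukemic libraries near 50% and both Tet2-deficient nonleukemic groups above 90%, and the tile by Zfp423 is high only in nonleukemic double mutants.

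The comparisons among the 9 libraries without leukemia gave no called member. The counts were 0 of 366 between nonleukemic double mutants and Tet2 knockouts (0% of all tiles), 0 between nonleukemic double mutants and Nras G12D (0.00246% of all tiles) and 0 between Tet2 knockouts and Nras G12D (0% of all tiles). Before adjustment, 23, 24 and 38 members had a p under 0.05 in the quasi-binomial model (6.28%, 6.56% and 10.4%, against 3.36%, 2.85% and 5.98% of all tiles). With limma 1, 5 and 3 did (0.273%, 1.37% and 0.82%, against 4.01%, 2.69% and 5.98%), so the members' share was above that of all tiles by one tool and under it by the other. Limma called 0 members as well, and so did a fit without the leukemic libraries. Nonleukemic double mutants lay above all Tet2 knockouts in 14 members (4.15% of all tiles) and under them in 27 (7.07%). They lay above all Nras G12D libraries in 51 (8.45%) and under them in 18 (3.58%). Tet2 knockouts lay above all Nras G12D libraries in 46 (8.94%) and under them in 7 (2.49%). In direction, 240 of the 366 members (65.6%, against 62.2% of all tiles) were higher in Tet2 knockouts than in Nras G12D and 228 (62.3%, against 57.6%) were higher in nonleukemic double mutants than in Nras G12D, shares close to those of all tiles. Over all members the Tet2 knockout libraries at 66.1% to 68.2% did not overlap the Nras G12D libraries at 65.0% to 65.7%, a difference of 1.55 points, which was 0.853 without Tet2 knockout replicate 2. The nonleukemic double mutants at 65.5% to 66.2% overlapped both.

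The largest differences among these groups without overlap of replicates are given as values. The tile at chr5:52759000-52759999, between Dhx15 and Ccdc149 with Sod3 in the interval, had 32.0%, 31.5% and 35.4% in nonleukemic double mutants, against 56.5%, 45.0% and 54.6% in Tet2 knockouts and 68.3%, 60.9% and 42.6% in Nras G12D libraries. The nonleukemic double mutants were the low group, with 6 group-specific CpGs within 1 Mb, whose part was not tested. The tiles by Zfp423, Gm12843 and Mex3a described above were the others. For nonleukemic double mutants they were 21.9 points (Zfp423) and -14.4 (Mex3a) against Tet2 knockouts and 23.7 (Zfp423) and -24.5 (Gm12843) against Nras G12D. The tile by Gm12843 had -18.5 points against Tet2 knockouts, where the replicates overlapped. The tile at chr7:7230000-7230999, next to the start of Vmn2r29, a vomeronasal receptor gene, had 71.8%, 88.4% and 68.6% in Tet2 knockouts, against 47.1%, 68.1% and 54.5% in Nras G12D libraries. Vmn2r29 belongs to a multigene family, and the tile had 302 reads per CpG, against a median of 101 in the 366 tiles. Whether reads of near-identical copies were mixed there was not tested. The tiles by Smg9 and Scamp4 followed at 16.9 and 16.1 points between Tet2 knockouts and Nras G12D.

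Replicates of the members differed most in the leukemic group. The median SD of a tile was 3.70 points in leukemic libraries, against 1.64 in nonleukemic double mutants, 2.78 in Tet2 knockouts and 2.01 in Nras G12D, and the 3 libraries spanned over 20 points in 41 tiles of leukemic libraries, 4 of nonleukemic double mutants, 20 of Tet2 knockouts and 9 of Nras G12D. Of the 366 tiles 32, 39 and 49 were under 20% in the leukemic libraries, against 7, 9 and 13 in nonleukemic double mutants, 13, 12 and 11 in Tet2 knockouts and 25, 24 and 21 in Nras G12D libraries. The tiles were chosen at this level in the 9 other libraries, so the choice itself favours higher leukemic counts. Conversely, 54 CpG-dense tiles outside the 366 stood at 20% or more in Tet2 knockout replicate 2, against 9 to 26 in every other library. That library also had the fewest reads.

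In 2 tiles a single library stood more than 30 points from all others. The tile at chr5:77286000-77286999, 47.5 kb from Aasdh, had 22.6% in leukemic replicate 3 and 57.9% to 81.0% elsewhere. The tile at chr7:150646000-150646999, one of the pair in the interval with Cdkn1c and Kcnq1ot1, had 71.2% in Tet2 knockout replicate 2 and 26.2% to 37.7% elsewhere.

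The longest run, 6 tiles at chr17:39980000-39985999, held the tile richest in CpGs, with 118, and had 6656 to 10440 reads per CpG; the 366 tiles had a median of 101. No gene was placed there, and whether reads of several copies were mixed in these tiles was not tested. The tile with 118 CpGs had 23.1%, 17.6% and 18.3% in leukemic libraries, against 22.7%, 22.3% and 22.0% in nonleukemic double mutants, 26.0%, 31.2% and 22.1% in Tet2 knockouts and 18.7%, 19.9% and 20.6% in Nras G12D libraries. Over the 9 members above 1000 reads per CpG, the highest mean, 38.3%, was again that of Tet2 knockout replicate 2, against 25.9% to 33.9% elsewhere. None of the 6 tiles of the run was among those named for a call.

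The run at chr7:4981000-4983999, between Zfp579 and Zfp784, was fully methylated, with 94.4% to 98.9% in every library of its 3 tiles. The run at chr5:111847000-111849999, between Pitpnb and C130026L21Rik with Mn1, a transcriptional co-regulator, in the interval, went through all classes within 3 adjacent tiles, with tile means of 21.6%, 82.4% and 52.4%. The remaining tile among those with the most CpGs, at chr8:124860000-124860999 between Zfpm1, a partner of GATA factors, and Zc3h18, had 73 CpGs and 94.0% to 97.4% in all 12 libraries.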

How the data were processed

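Reduced representation bisulfite sequencing libraries were made by MspI digestion, selection of 150 to 400 bp fragments and 50 bp single-end reads, per the labels' protocols. The submitters' processing notes name Bismark, without a version, and mm9 (NCBIM37). The deposited tables give, per CpG position and strand, the coverage as a read count and the percent of reads with C and with T. Every listed position has at least 10 reads.

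Methylated and unmethylated reads were computed from the deposited coverage counts and percent values, rounded, and summed over both strands. The 921697 autosomal CpGs with at least 10 reads in all 12 libraries were grouped into 1000-base tiles by their mm9 position. Each tile with at least 3 CpGs was fitted with a quasi-binomial model of group over all 12 libraries (residual degrees of freedom: 8). Its Pearson dispersion was moderated as in squeezeVar of limma, with a floor of 1, and contrasts were F tests adjusted by Benjamini-Hochberg over all tiles. The model was tested on simulated data. Levels over sets of tiles have no test. Counts cover PCR copies, and a CpG's precision is limited to that of its reads.

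No mm9 genome or annotation was used. RefSeq promoters (GRCm38.p6) were placed in mm9 where at least 8 CpGs listed in their 300-base window all fell on CpGs of the sequence, at a unique place on the annotated chromosome. The order of 8807 of 8811 neighbouring placed pairs was that of the gene table. Genes between placed promoters were read from that table by order only.

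Tiles were named by a rule: per comparison, the 5 largest called rises and falls without overlap of replicates, or the 3 largest differences where fewer than 3 were called; promoters of listed genes; the tiles next to the threshold; the 5 tiles with the most CpGs; and the 3 longest runs. Members and gene lists were chosen with earlier results of these data known. A protocadherin list had no placed promoter. Same-numbered libraries did not pair. The software was R 4.3.3 with limma 3.58.1, and Python 3.11.15 with matplotlib 3.10.9, numba 0.67.0, pandas 2.3.3, SciPy 1.17.1 and NumPy 2.4.6.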

Additional observations from a re-analysis of the deposited data

Results flagged for a closer look

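CpG-dense tiles of the X chromosome stood outside the comparisons. Of 176 such tiles, 22 had a mean of 20% or more over the 9 libraries used for the choice of tiles. Over all 176 tiles the mean level was 24.4%, 22.5% and 22.5% in leukemic libraries, 2.51%, 23.2% and 23.0% in nonleukemic double mutants, 2.51%, 2.78% and 25% in Tet2 knockouts and 25%, 24.5% and 24.3% in Nras G12D libraries. The 3 libraries under 3% were those with 349, 360 and 251 listed Y chromosome positions, against 2 to 18 in the 9 others. The sex of the animals is not given in the labels.

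CpG positions that were listed in some groups and not in others had no part in the tile levels, which use CpGs read in all libraries. They were on chromosome 3 in 155 of 160 cases for the leukemic double mutant with Nras G12D, and in 96 of 136 cases for the nonleukemic double mutant with Tet2 knockout. For the nonleukemic double mutant alone, 216 of 297 were on chromosome 8. What these positions stem from was not tested.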

How the results depend on the processing

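No result changed sign, and the comparisons without the leukemic group called 0 members under every alternative run. Counts of called members against nonleukemic double mutants, Tet2 knockouts and Nras G12D were 23, 30 and 13 as reported. They were 13, 18 and 8 with at least 20 reads per CpG, 1, 4 and 0 with limma, and 4, 1 and 0 in a fit on the 6 libraries compared. They were 41, 61 and 22 with no minimum difference and 6, 6 and 5 with 20 points. Among members with at least 30 CpGs they were 3, 6 and 2, and 8, 1 and 6 when the 3 libraries with many Y chromosome positions were left out, which leaves 2 nonleukemic double mutant libraries and 1 Tet2 knockout library, assumed to vary like the other groups. With equal reads per tile the count against nonleukemic double mutants was 15. Leaving out 1 library gave 10 to 31, 21 to 47 and 4 to 21. Same-numbered libraries did not deviate together (correlations of -0.012 to 0.023 over 18 pairs), and with the replicate number as a block the counts were 19, 28 and 6. The mean level difference moved where members with at least 30 CpGs were taken, to -1.31 points for leukemic minus Nras G12D and 1.22 for nonleukemic double mutant minus Nras G12D. With pooled reads, in which the 9 members of very high coverage weigh most, it was -6.72 for leukemic minus Tet2 knockout, 4.30 for Tet2 knockout minus Nras G12D and -3.72 for nonleukemic double mutant minus Tet2 knockout. Leaving out 1 library, it ranged from -4.35 to -2.90, -5.22 to -3.57 and -3.67 to -2.23 points for the 3 leukemic comparisons. The named tiles include those of comparisons without the leukemic group, which had no call to lose. Of 411 repeats of all named tiles, these among them, 323 kept their side of the threshold and 88 lost the call. The cause of these changes was not tested. A fit without the leukemic libraries and one without members over 1000 reads per CpG were chosen after seeing the data. Tiles of fewer reads have wider error, and the 366 tiles had a median of 101 reads per CpG.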
